A study of Mus musculus with 24 samples.

Results

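The cell cycle and mitosis genes described here are a set of 45 genes given by symbol: cyclins and their kinases, enzymes and clamps of DNA replication, and proteins of the mitotic spindle, kinetochore and cytokinesis. They were found on the arrays by the gene name printed for each non-control probe, which gave 60 probes for the 45 genes. A probe was kept when the scanner software called it well above background throughout 1 or more of the groups. That left 35 probes and 29 of the 45 genes, among 12429 genes tested in all. By role, 6 of 8 genes of the G1 cyclins and kinases, 10 of 11 S phase genes and 13 of 26 genes of G2 and mitosis had a kept probe.

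The series measured RNA of the mouse right ventricle on 1-colour Agilent arrays, 1 array for each of 24 samples. The labels give the strain as M/FVB/10-12 for every sample, and they give either sham surgery or PSPI, an operation under which that ventricle works against raised pressure and volume. There were 10 sham samples, with no month in their titles, while PSPI had 5 samples in month 1, 5 in month 2 and 4 in month 3. The comparison named in the design is of overloaded with control right ventricles, with fewer controls than the 10 labelled here. The labels name no transgene or drug, and they do not state whether each sample is its own animal. The p-values therefore rest on the spread among these samples, and part of it may be technical. In such bulk samples, fewer cells of a type and less RNA per cell cannot be told apart.

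A dividing cell passes through G1, in which D-type cyclins with Cdk4 and cyclin E with Cdk2 release E2F factors from the retinoblastoma proteins, into S phase, in which the MCM helicase, the Pcna clamp and ribonucleotide reductase serve DNA replication. In G2 and mitosis, cyclin A and cyclin B with Cdk1, the Aurora and Polo kinases, kinetochore proteins and the anaphase-promoting complex drive chromosome segregation. Most cardiomyocytes of the adult mouse heart have left the cycle, and in the heart under load other cells, such as fibroblasts, endothelial cells and immune cells, are known to divide. S phase genes are commonly controlled through E2F sites, and mitosis genes through CCAAT boxes and a short element called CHR.

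The promoters of 4 members are printed because the results turn on these genes: Mki67 for the mitosis genes that varied together, Hmmr and Cenpa for the pair of mitosis genes that moved in opposite directions, and Mcm6 for the S phase genes. The sequences are from RefSeq on build GRCm38.p6, 5′ to 3′ on the gene's strand, and hold the 250 bases before the annotated start. They are chr7:135716380-135716629 on the minus strand for Mki67, chr11:40733438-40733687 on the minus strand for Hmmr, chr5:30666636-30666885 on the plus strand for Cenpa and chr1:128359706-128359955 on the minus strand for Mcm6. Capitals mark matches to CHR (TTTGAA or TTCGAA), the CCAAT box (CCAAT) and the E2F site (TTCCCGC, also TTCGCGC, also TTGCCGC, also TTGGCGC), each searched on both strands, so that a box read from the other strand appears as ATTGG.
Mki67: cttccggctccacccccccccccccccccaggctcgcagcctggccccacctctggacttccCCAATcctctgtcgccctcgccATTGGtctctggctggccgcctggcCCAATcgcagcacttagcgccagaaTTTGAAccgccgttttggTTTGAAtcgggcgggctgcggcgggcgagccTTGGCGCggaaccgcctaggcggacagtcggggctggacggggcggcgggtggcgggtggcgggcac
Hmmr: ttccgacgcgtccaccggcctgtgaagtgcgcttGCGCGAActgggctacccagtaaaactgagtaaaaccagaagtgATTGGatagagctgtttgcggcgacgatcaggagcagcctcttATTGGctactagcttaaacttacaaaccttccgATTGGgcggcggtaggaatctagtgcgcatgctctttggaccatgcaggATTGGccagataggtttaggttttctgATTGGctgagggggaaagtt
Cenpa: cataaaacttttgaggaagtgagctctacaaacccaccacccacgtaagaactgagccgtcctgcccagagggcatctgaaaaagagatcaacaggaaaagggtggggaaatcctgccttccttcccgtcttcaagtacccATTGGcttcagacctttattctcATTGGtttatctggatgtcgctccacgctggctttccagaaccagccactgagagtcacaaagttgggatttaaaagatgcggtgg
Mcm6: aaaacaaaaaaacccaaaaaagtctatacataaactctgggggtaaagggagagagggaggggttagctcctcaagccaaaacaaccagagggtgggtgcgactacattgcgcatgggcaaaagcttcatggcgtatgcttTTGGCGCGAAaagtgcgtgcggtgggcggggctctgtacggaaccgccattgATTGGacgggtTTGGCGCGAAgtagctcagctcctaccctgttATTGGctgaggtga
Mki67 held 2 CHR, 3 CCAAT and 1 E2F match, and Hmmr held 5 CCAAT and 1 E2F match with no CHR. Cenpa held 2 CCAAT matches, and Mcm6 held 2 CCAAT and 4 E2F matches, which overlap as pairs because TTGGCGCGAA is read on both strands. The CCAAT box read from the other strand can also share bases with TTGGCGC. Of the 45 members, 37 had a promoter in the table of 27025 genes. Matches were counted by gene, and a gene with several promoters counted when any of them held a match. CHR was found for 10 of 22 mitosis genes (45.5%) and 2 of 10 S phase genes (20.0%), against 19.6% of all genes in the table. E2F was found for 5 of 22 mitosis genes (22.7%) and 5 of 10 S phase genes, against 9.01% of all. CCAAT was found for 86.4% and 80.0% of the mitosis and S phase genes, against 37.5% of all. A match describes the letters in the window and is not evidence of a factor bound there.

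Levels below are log2 signals relative to the array's 75th percentile over 16946 probes that were well above background on all 24 arrays. A level of 0 is that percentile and 1 unit is a 2-fold step. Differences are log2 differences with their standard error, from a limma model of the 4 groups with Benjamini-Hochberg adjustment over all 12429 genes, two-sided, and a gene is said to have risen or fallen where the adjusted p was under 0.05. The intensity of a probe depends on its sequence, so levels were never compared between genes.

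The labelled tissue was checked against marker genes. All 10 cardiomyocyte markers were well above background on every array, 2 of 5 atrial markers were, and 3 of 4 lung epithelium markers were above background on no array. The atrial score was the mean over 4 kept atrial markers of each level minus that marker's mean over all arrays. It ran from -4.07 to 4.81 in the shams and from -2.03 to 3.67 in month 1. In month 2 it ran from -0.91 to 2.35 and in month 3 from -3.09 to -1.33. Of the 4, 2 were above background in every sham. The part of this spread in the cell cycle results was not tested. From 36.1% to 56.1% of probes were detected per array. Close to identical were 8 of 276 pairs of arrays, each within a group (median absolute difference 0.091 to 0.20 over 200 variable genes, against at least 0.234 for the other pairs). They were Sham 3, 4 and 10, Sham 1 and 5, Sham 7 and 9, samples 1 and 5 of month 1, samples 1 and 5 of month 2, and samples 2 and 3 of month 3, and 6 of these pairs lay on different slides. All arrays were kept, and each such set was averaged to 1 sample as an alternative. Of the 3 slides, the first held 7 shams and 1 month 1 sample, the second 3 month 1, 4 month 2 and 1 month 3 samples, and the third 3 shams with 3 samples of month 3 and a single sample from each earlier month. Myh7, the fetal myosin heavy chain, lay between 1.62 and 2.52 on 9 arrays and between 4.67 and 5.91 on the other 15, which were Sham 6 to 9, samples 1 and 5 of month 1, and every array of months 2 and 3.

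Against the shams, the members that rose over the 3 PSPI months together were Ccnd1, Ccne1, Rrm1, Mki67, Plk1 and Hmmr, and those that fell were Cdk4 and Cenpa. That is 8 of 29 members (6 higher and 2 lower, 27.6%). The share is near that of all genes tested, of which 24.4% changed, 10.8% upward and 13.6% downward. No member passed in month 1, where 0% of all genes did with limma, and 2 members and 1508 genes had an unadjusted p under 0.05. In month 2, Ccne1 and Mcm6 rose, 2 of 29 members (6.90%) against 14.4% of all genes (6.40% upward, 8.05% downward); with the replicate number as a block, which does not pair these groups, 7 members and 24.1% of all genes passed. In month 3, 8 members rose and 3 fell, 11 of 29 (37.9%), against 38.9% of all genes (17.2% upward, 21.7% downward). None of these shares sets the members apart from the other genes of the arrays. With close arrays averaged, Hmmr alone of the 8 kept its call over all months (0.64, adjusted p = 0.0265). The others were then at 0.32 for Ccnd1 (adjusted p = 0.30), 0.30 for Ccne1 (adjusted p = 0.104), 0.24 for Rrm1 (adjusted p = 0.0611), 0.64 for Mki67 (adjusted p = 0.216), 0.60 for Plk1 (adjusted p = 0.135), -0.25 for Cdk4 (adjusted p = 0.077) and -0.21 for Cenpa (adjusted p = 0.197).

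**Figure D1:**
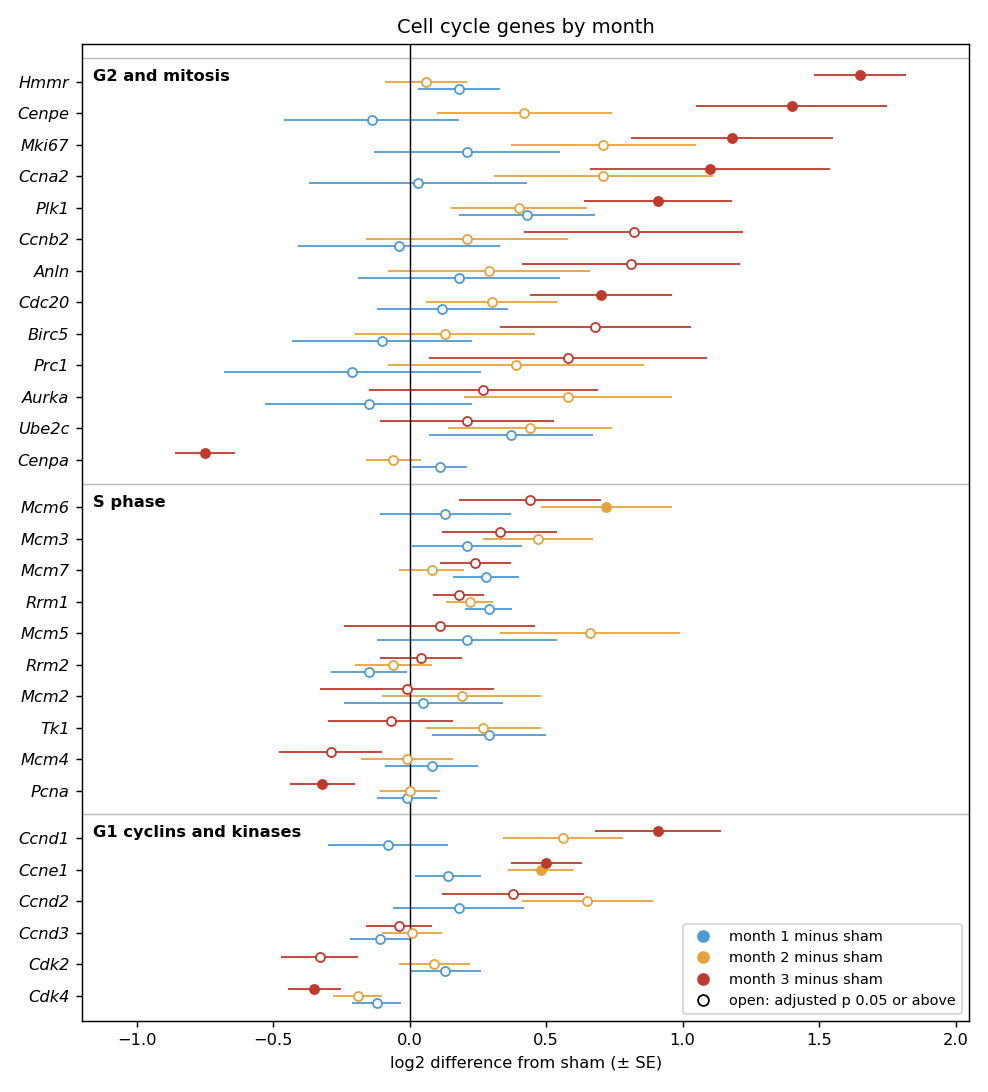
Log2 difference from sham (x axis) of the 29 members with a kept probe (y axis), by class, for PSPI months 1, 2 and 3; points are estimates, bars are standard errors, and filled points have an adjusted p under 0.05. Month 1 has no filled point, and in month 3 Hmmr at 1.65 and Cenpa at -0.75 mark the ends of the mitosis class.

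Among the G1 genes, Ccnd1, the D-type cyclin most often induced by growth signals, rose at month 3. Its level in the shams ran from -1.35 (lowest) through -0.98 (median) to -0.25 (highest). It was -0.47, -0.91, -1.51, -1.41 and -0.30 in the month 1 samples, -0.18, -0.64, -0.09, -0.45 and -0.02 in month 2, and 0.32, -0.28, -0.06 and 0.31 in month 3. Month 1 reached below the lowest sham and lay otherwise within the shams' range, while 3 of the 4 month 3 samples lay above every sham and the other lay just inside the shams' upper end. The difference from sham was -0.08 ± 0.22 in month 1 (adjusted p = 0.927), 0.56 ± 0.22 in month 2 (adjusted p = 0.0827) and 0.91 ± 0.23 in month 3 (adjusted p = 0.00431). The probe lies at chr7:152116202-152116261 of build mm9, per the file's own column.

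Over all months Ccnd1 was 0.46 ± 0.16 higher (adjusted p = 0.0437), a call that was lost when any of 15 of the 24 arrays was left out (adjusted p 0.0509 to 0.0826 without them). The 15 are Sham 1 to 5 and 10, samples 1, 2 and 5 of month 1, samples 1, 3 and 5 of month 2, and samples 1, 3 and 4 of month 3. The month 3 call was lost on the third slide alone, where the difference was 0.88 (adjusted p = 0.0971), and with slide as a block it was 1.09 (adjusted p = 0.00573). The spread among the shams was not even: Sham 6 to 9, the shams at the higher Myh7 level, had Ccnd1 at -0.47, -0.43, -0.25 and -0.27. These are the 4 highest Ccnd1 values of the 10 shams. Over all groups Ccnd1 ran from -1.51 to -0.91 at the lower Myh7 level and from -0.64 to 0.32 at the higher, where every array of months 2 and 3 lay. The part of whatever sets the arrays at the 2 levels apart in the result was not tested.

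Ccnd2, another D-type cyclin, had no call in any month. Its sham levels ran from -1.32 through -0.94 to 0.07, month 1 was at 0.35, -1.19, -0.90, -0.99 and -0.04, and its month 3 samples stood at -0.02, -0.51, -0.55 and -0.35, inside that range. The month 2 samples, at 0.11, -0.38, -0.03, -0.14 and 0.00, lay in the upper part of it, apart from sample 1, which lay above every sham. Sham 6 to 9, at the higher Myh7 level like every array of months 2 and 3, were at -0.42, -0.18, 0.07 and -0.37. Over all groups Ccnd2 ran from -1.32 to -0.86 at the lower Myh7 level and from -0.55 to 0.35 at the higher. The part of the Myh7 levels in its differences was not tested. The differences from sham were 0.18 ± 0.24 (adjusted p = 0.82) in month 1, 0.65 ± 0.24 (adjusted p = 0.0649) in month 2 and 0.38 ± 0.26 (adjusted p = 0.244) in month 3. Ccnd3, the remaining D-type cyclin, was -0.04 ± 0.12 from sham in month 3 (adjusted p = 0.80).

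Ccne1, the cyclin that activates Cdk2 at the entry into S phase, rose in months 2 and 3. Its sham levels ran from -4.60 through -4.42 to -3.93, and its month 1 samples, at -4.05, -4.23, -4.28, -4.44 and -3.91, lay within them in 4 of 5 cases. Month 2 gave -3.71, -4.03, -3.82, -4.08 and -3.59, and month 3 gave -3.72, -3.88, -3.82 and -3.89. The probe is placed at chr7:38882937-38882960 of mm9. Every month 3 sample lay above every sham, and 3 of 5 month 2 samples did. Such full separation of month 3 from the shams, in either direction, held for 4 of 29 members and for 12.4% of all genes. The difference was 0.48 ± 0.12 in month 2 (adjusted p = 0.0114), 0.50 ± 0.13 in month 3 (adjusted p = 0.00387) and 0.37 ± 0.088 over all months (adjusted p = 0.00501). The call was lost at month 3 under quantile normalization (0.27, adjusted p = 0.109) and on the third slide alone (0.45, adjusted p = 0.0932), and at month 2 on that slide (0.72, adjusted p = 0.812) and with close arrays averaged (0.38, adjusted p = 0.144).

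Cdk4, the kinase partner of the D-type cyclins, fell by 0.35 on the log2 scale in month 3 (SE 0.097, adjusted p = 0.00678). Its levels were 0.19, 0.42 and 0.57 as lowest, median and highest sham, and 0.11, 0.00, -0.19 and 0.31 in month 3. Samples 1, 2 and 3 lay below every sham and sample 4 lay among them. Month 1 was at 0.53, 0.30, 0.23, 0.0 and 0.40 and month 2 at 0.22, 0.02, 0.29, 0.27 and 0.32, with 1 sample of each below every sham. The other 2 kept Cdk4 probes gave -0.39 and -0.41 in month 3, but 0.01 and 0.25 in month 2 and -0.13 and 0.02 over all months. The call over all months was kept in 8 of 18 alternative settings and was lost with the mean of kept probes. Without sample 3 of month 3 the month 3 difference was -0.27 (adjusted p = 0.0528), with close arrays averaged -0.33 (adjusted p = 0.0515), with slide as a block -0.24 (adjusted p = 0.113) and on the third slide alone -0.31 (adjusted p = 0.258). The Cdk4 decrease and the Ccnd1 increase thus stood side by side in month 3. Cdk2, the partner of cyclin E, was -0.33 ± 0.14 from sham in month 3 (adjusted p = 0.071). E2f1, a transcription factor that the retinoblastoma proteins hold back, was above background on 15 arrays, 7 of them shams, and Ccne2 on none. Neither had a kept probe, and without the filter E2f1 was 0.40 ± 0.38 from sham in month 3 (adjusted p = 0.463).

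The S phase genes moved little as a class. All 10 that were kept had been above background in every sham, so the filter did not choose them by the PSPI groups. Their median difference from sham was 0.17 in month 1, 0.20 in month 2 and 0.08 in month 3, beside medians over all genes of 0.01, -0.02 and -0.04. In month 3, 6 of the 10 lay above 0, none rose and Pcna fell. The range in month 3 ran from -0.32 for Pcna to 0.44 for Mcm6.

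Mcm6, a subunit of the replicative helicase, rose in month 2 by 0.72 ± 0.24 (adjusted p = 0.0476). Its levels were -2.36, -2.01 and -1.28 as lowest, median and highest sham, then -1.34, -1.99, -2.24, -2.10 and -1.31 in month 1, -1.01, -1.91, -1.10, -0.89 and -1.12 in month 2, and -1.05, -2.23, -1.97 and -0.71 in month 3. In month 2, 4 of 5 samples lay above every sham. In samples 1 and 4 of month 3 lay above every sham and samples 2 and 3 lay inside the shams' range, so the mean difference there was 0.44 ± 0.26 (adjusted p = 0.187). The month 2 call was narrow: it was lost without any of 13 arrays (adjusted p 0.0507 to 0.127), namely Sham 1 to 5, 7 and 10, samples 2 and 4 of month 1, and samples 1, 3, 4 and 5 of month 2. It was also lost with close arrays averaged (0.56, adjusted p = 0.284), with slide as a block (1.05, adjusted p = 0.0582) and on the third slide alone (0.98, adjusted p = 0.822).

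Pcna, the sliding clamp of the replicative polymerases, fell by 0.32 in month 3 (SE 0.12, adjusted p = 0.0438). Its sham levels ran from -0.79 through -0.34 to -0.16, and the month 3 samples were at -0.46, -1.01, -0.91 and -0.50. Month 1 was at -0.36, -0.35, -0.73, -0.39 and -0.21 and month 2 at -0.32, -0.41, -0.45, -0.66 and -0.18, all inside the shams' range. In month 3, samples 2 and 3, the pair that nearly coincided, lay below every sham, and samples 1 and 4 lay inside the shams' range. Without that pair, an alternative chosen after the values were seen, the difference was -0.08 (adjusted p = 0.744). The call was lost without any of 10 arrays (adjusted p 0.0504 to 0.211): Sham 2, 3, 4, 6, 8, 9 and 10, sample 3 of month 2, and samples 2 and 3 of month 3. It was lost as well with close arrays averaged (-0.25, adjusted p = 0.191), with slide as a block (-0.31, adjusted p = 0.125) and on the third slide alone (-0.43, adjusted p = 0.17).

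Rrm1, the large subunit of ribonucleotide reductase, rose over all months by 0.23 ± 0.066 (adjusted p = 0.0151). Its sham levels ran from -3.12 through -2.86 to -2.65, and its PSPI samples were at -2.39, -2.65, -2.67, -2.68 and -2.47 in month 1, -2.59, -2.72, -2.58, -2.66 and -2.66 in month 2, and -2.67, -2.66, -2.99 and -2.39 in month 3. Of the 14 PSPI samples, 5 lay above every sham and the others within the shams' range, among them sample 3 of month 3 below the shams' median. No month passed alone, and with close arrays averaged, with slide as a block and on the third slide alone the call over all months was lost. The other members of the helicase spread around 0 in month 3: Mcm2 at -0.01 ± 0.32 (95% interval -0.67 to 0.65, adjusted p = 0.98), Mcm3 at 0.33 ± 0.21, Mcm4 at -0.29 ± 0.19, Mcm5 at 0.11 ± 0.35 and Mcm7 at 0.24 ± 0.13. The small reductase subunit Rrm2 was at 0.04 ± 0.15 and thymidine kinase Tk1 at -0.07 ± 0.23. Tyms, the thymidylate synthase, was above background on 9 arrays and had no kept probe.

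The mean differences of the S phase genes in month 3 hid a division among its samples. The S phase score, the mean over the 10 genes of each level minus that gene's mean over all arrays, was 0.25, -0.55, -0.47 and 0.67 in the 4 samples, while it lay between -0.45 and 0.19 in the shams. Samples 1 and 4 stood above every sham and the close pair of samples 2 and 3 stood below every sham. With all 4 samples none of Mcm3, Mcm6, Mcm7 and Rrm1 had a call in month 3 (limma adjusted p = 0.215, 0.187, 0.139 and 0.126). Leaving out that pair was chosen after the values were seen, and the pair had the lowest S phase scores. Higher S phase differences without it were thus set by the choice, and no conclusion is drawn from them. Without that pair the median S phase difference was 0.53, and Mcm3 (0.84, adjusted p = 0.0191), Mcm6 (1.05, adjusted p = 0.0172), Mcm7 (0.63, adjusted p = 0.00142) and Rrm1 (0.33, adjusted p = 0.0415) passed the threshold. In that fit 14 members were called in month 3, 13 of them higher, and 9 of the 11 calls of the full set were among them, while 17.9% of all genes were called and 53.1% of those calls were upward.

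**Figure D2:**
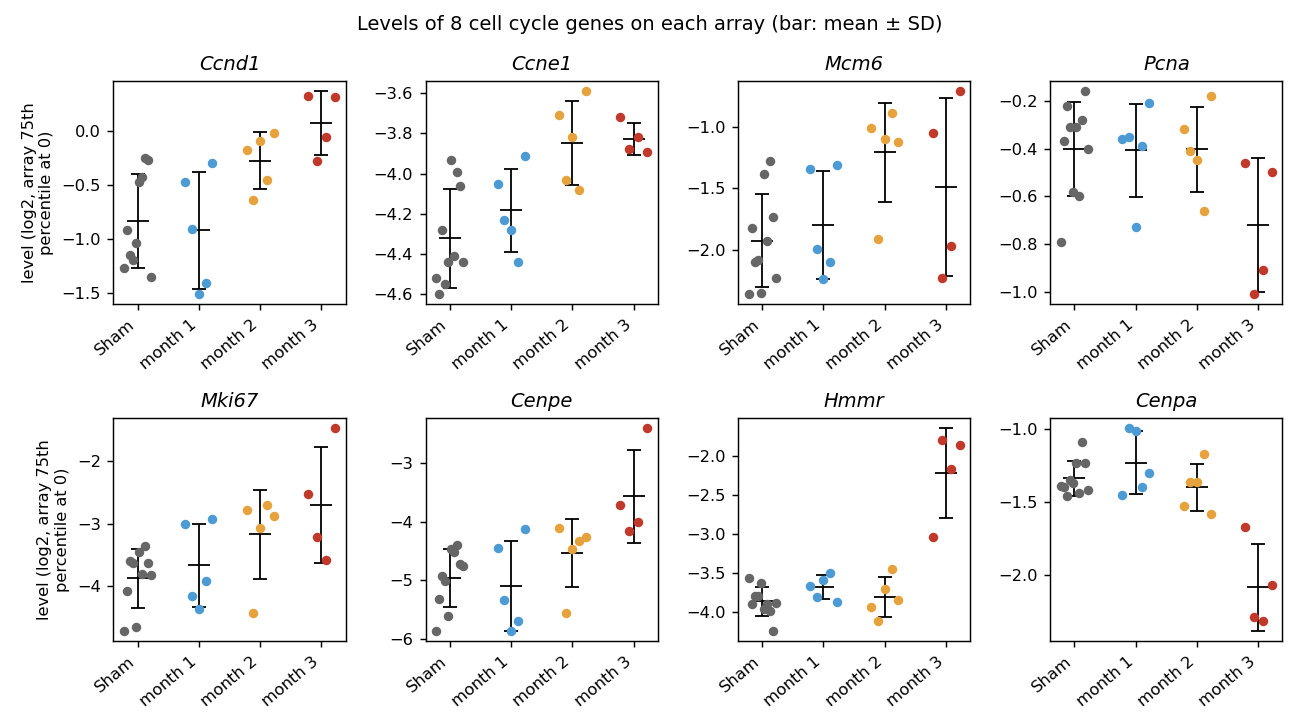
Log2 level relative to the array's 75th percentile (y axis) of 8 members in every array, by group (x axis: sham, PSPI months 1, 2 and 3); points are arrays and the bars are the group mean ± SD. Hmmr stays near -3.8 until month 2 and reaches -2.21 on average in month 3, Cenpa drops to -2.09, and the month 3 samples of Mcm6 and Pcna lie apart from each other.

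Of the genes of G2 and mitosis with a kept probe, 6 rose and Cenpa fell in month 3, and most of the class varied together from array to array. Only 6 of the 26 were above background in every sham: Mki67, Birc5, Cdc20, Cenpa, Hmmr and Ube2c. The other 7 with a kept probe (Ccna2, Ccnb2, Aurka, Plk1, Cenpe, Prc1 and Anln) passed only through a PSPI group, so a count over the 13 is partly set by the filter and is read here only beside counts that are not. Over the 6 measured in every sham, 3 rose and 1 fell in month 3 and the median difference was 0.69. Over all 26 without a filter, in a fit of 23112 genes whose own median moved to 0.27, the median was 0.82, with 24 of 26 above 0, 9 rising and 1 falling, where 23.4% of all genes were called and 58.8% of those calls were upward. Many of the added genes were above background on few arrays, as given below. The median over the 13 was 0.11 in month 1, 0.39 in month 2 and 0.81 in month 3.

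Mki67, the proliferation antigen Ki-67 that coats mitotic chromosomes, rose in month 3 by 1.18 ± 0.37 (adjusted p = 0.0142). Its levels were -4.73, -3.72 and -3.37 as lowest, median and highest sham, -3.0, -4.16, -4.37, -3.92 and -2.92 in month 1, -2.79, -4.44, -3.07, -2.70 and -2.88 in month 2, and -2.53, -3.22, -3.59 and -1.46 in month 3. From month 1 to month 3, 2 of 5, 4 of 5 and 3 of 4 samples lay above every sham. The probe lies at chr7:142884764-142884823 of mm9, and another kept probe gave a difference of 1.17 in month 3. Without sample 4 of month 3 the difference was 0.77 (adjusted p = 0.107), and on the third slide alone it was 1.29 (adjusted p = 0.163), with slide as a block 1.51 (adjusted p = 0.0123) and with array weights 0.64 (adjusted p = 0.093).

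Over all months Mki67 was 0.70 ± 0.26 higher (adjusted p = 0.0493), with the call lost without any of 17 arrays (adjusted p 0.0524 to 0.0972). Those were Sham 1 to 5, 7, 9 and 10, samples 1, 4 and 5 of month 1, samples 1, 3, 4 and 5 of month 2, and samples 1 and 4 of month 3. The difference itself stayed between 0.56 and 0.73 in those fits.

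Among the kinetochore genes, Cenpe, the motor that carries chromosomes to the spindle equator, rose in month 3 by 1.40 ± 0.35 (adjusted p = 0.00362). Its shams ran from -5.87 through -4.85 to -4.40, with 9 of 10 above background, and the month 3 samples were at -3.72, -4.15, -4.0 and -2.39. Every month 3 sample lay above every sham. Month 1, at -4.45, -5.34, -5.87, -5.70 and -4.13, and month 2, at -4.11, -5.56, -4.46, -4.32 and -4.26, overlapped the shams. Without sample 4 of month 3 the difference was 1.01 (adjusted p = 0.0324), and on the third slide alone 1.52 (adjusted p = 0.0852).

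Plk1, the Polo-like kinase of mitotic entry, rose in month 3 by 0.91 ± 0.27 (adjusted p = 0.0117) and over all months by 0.58 ± 0.19 (adjusted p = 0.0302). Its shams ran from -6.14 through -5.87 to -5.37, with 7 of 10 above background, and month 3 was at -5.32, -4.67, -5.67 and -3.83, with sample 3 among the shams. Month 1 was at -5.0, -5.77, -5.29, -5.42 and -5.24 and month 2 at -5.15, -6.46, -5.55, -4.83 and -4.92, so in each month 3 of 5 samples lay above every sham. Without sample 4 of month 3 the difference was 0.56 (adjusted p = 0.098), and under quantile normalization 0.53 (adjusted p = 0.0933). The call over all months was lost without Sham 2 (adjusted p = 0.0583) or Sham 6 (adjusted p = 0.0527).

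Cdc20, the activator of the anaphase-promoting complex, rose in month 3 by 0.70 ± 0.26 (adjusted p = 0.0359). Its shams ran from -4.06 through -3.32 to -3.02 and month 3 was at -2.65, -3.24, -3.20 and -1.86, so samples 2 and 3 lay among the shams. Month 1, at -3.09, -3.24, -3.82, -3.40 and -3.0, and month 2, at -2.82, -4.10, -3.22, -2.47 and -3.04, overlapped them. The call was lost without Sham 1, 2 or 5 or month 3 sample 1 (adjusted p 0.0514 to 0.0689), and without sample 4 the difference was 0.40 (adjusted p = 0.228). Ccna2, the cyclin of S phase and G2, rose in month 3 by 1.10 ± 0.44 (adjusted p = 0.049), from shams between -6.63 and -4.72 (8 of 10 above background) to -4.29, -5.07, -4.79 and -3.19. Month 1 was at -4.50, -6.04, -6.44, -5.88 and -4.18 and month 2 at -4.41, -6.25, -4.76, -4.09 and -4.12, a wide range in both. Samples 2 and 3 of month 3 again overlapped the shams, and the call was lost without any of 15 arrays. These were Sham 1 to 7, samples 2 and 4 of month 1, samples 1, 3 and 5 of month 2, and samples 1, 3 and 4 of month 3, and without sample 4 the difference was 0.72 (adjusted p = 0.233).

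On the third slide alone the month 3 differences were 1.02 for Plk1 (adjusted p = 0.151), 0.80 for Cdc20 (adjusted p = 0.223) and 0.86 for Ccna2 (adjusted p = 0.267). With close arrays averaged, Cdc20 (0.85, adjusted p = 0.0714) and Ccna2 (1.29, adjusted p = 0.0867) lost the call, as they did with the percentile over all probes (0.53, adjusted p = 0.0787, and 0.94, adjusted p = 0.0696). The remaining kept mitosis genes had no call in month 3. Cyclin B2 (Ccnb2) was at 0.82 ± 0.40, survivin (Birc5) at 0.68 ± 0.35, the cytokinesis scaffold Anln at 0.81 ± 0.40, the midzone protein Prc1 at 0.58 ± 0.51, the Aurora kinase Aurka at 0.27 ± 0.42 and the ubiquitin-conjugating enzyme Ube2c at 0.21 ± 0.32.

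Of the mitosis genes with no kept probe, Ccnb1, the main mitotic cyclin, was above background on 9 arrays, Top2a, which untangles replicated DNA, on 3, and Cdk1, the mitotic kinase, on 2. Without the filter their month 3 differences were 1.88 ± 0.56 (adjusted p = 0.0191), 1.12 ± 0.41 (adjusted p = 0.0503) and 0.61 ± 0.44 (adjusted p = 0.326). As most of these levels are near background, the values describe the signal more than the transcript. The other 10 (Bub1, Bub1b, Aurkb, Kif11, Kif20a, Kif23, Nusap1, Tpx2, Ect2 and Cks2) were above background on between 0 and 10 arrays, and their month 3 differences without the filter ran from -0.04 for Aurkb to 1.58 for Kif11.

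Hmmr and Cenpa left the rest of their class. Hmmr, which encodes the hyaluronan-mediated motility receptor, also a spindle assembly protein, rose 3.14-fold in month 3, by 1.65 ± 0.17 on the log2 scale (adjusted p = 2.55e-07). Its shams ran from -4.24 through -3.88 to -3.56, month 1 was at -3.66, -3.80, -3.59, -3.49 and -3.87, month 2 at -3.93, -4.11, -3.70, -3.44 and -3.84, and month 3 at -3.04, -1.79, -2.16 and -1.85. All 4 month 3 samples lay above every other array. Unlike for Mki67 and Cenpe, sample 1 was the lowest of the 4, and sample 2 the highest. The single probe lies at chr11:40515324-40515383 of mm9, and whether it lies in an exon or a UTR was not assigned here.

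Cenpa, the histone H3 variant that marks centromeres, fell in month 3 by 0.75 ± 0.11 on the log2 scale (adjusted p = 3.35e-05). Its shams ran from -1.46 through -1.38 to -1.09, month 1 was at -1.45, -0.99, -1.01, -1.40 and -1.30, month 2 at -1.53, -1.36, -1.36, -1.17 and -1.58, and month 3 at -1.67, -2.29, -2.32 and -2.07. All 4 month 3 samples lay below every other array. The single probe is placed at chr5:30974916-30975386 of mm9, a span longer than the probe itself.

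Successive months were compared directly, month 1 with month 2 and month 2 with month 3. Of the 29 members, 2 (6.90%) passed for month 3 against month 2, against 18.7% of all genes (8.91% upward, 9.77% downward): Hmmr at 1.59 ± 0.19 (adjusted p = 4.44e-06) and Cenpa at -0.69 ± 0.13 (adjusted p = 0.000695). No member passed for month 2 against month 1 with limma, where 3 members had an unadjusted p under 0.05 and 0.00805% of all genes passed. For these 2 months the equal replicate numbers went together in all 5 pairs (r 0.19 to 0.52), and with the number as a block 0 members passed as well, 4 at an unadjusted p under 0.05. The month 3 differences from sham of both genes kept their call in the 17 alternative settings that were tested and without each array in turn, at 1.39 to 1.98 for Hmmr and -0.91 to -0.53 for Cenpa. On the third slide alone they were 1.98 (adjusted p = 0.00322) and -0.88 (adjusted p = 0.0146). Against month 2, Cenpa lost the call on that slide (-0.65, adjusted p = 0.171) and without the close pair of month 3 (-0.47, adjusted p = 0.0583).

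Over all months Hmmr rose by 0.63 ± 0.12 (adjusted p = 0.000885) and Cenpa fell by 0.23 (SE 0.079, adjusted p = 0.0343). Without month 3 the Cenpa difference was 0.02, on the other side of 0, and Hmmr lost its call. The Cenpa call over all months was also lost without any of 9 arrays (adjusted p 0.0503 to 0.0627): Sham 6, 8 and 9, samples 1 and 4 of month 1, samples 1 and 5 of month 2, and samples 2 and 3 of month 3. The numbers of members called over all months ran from 5 to 11 when each array was left out in turn, with the 5 reached without Sham 2, sample 1 of month 1, sample 1 of month 2 or sample 5 of month 2.

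How closely each gene followed its class was described by Pearson's r between its level and the mean of the other kept genes of its class, over the 24 arrays, which share slides, near-coincident pairs and groups. For the mitosis genes the median r was 0.90, from -0.40 for Cenpa to 0.96 for Ccna2, with Mki67 at 0.95 and Hmmr at 0.34. For the S phase genes the median was 0.74 (0.51 to 0.86), and for the G1 genes 0.24 (0.04 to 0.55). The mitosis genes other than Hmmr and Cenpa thus were high and low on the same arrays, while the G1 genes varied more separately.

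Set against each other within an array, S phase and mitosis genes parted in month 3. The S phase score minus the mitosis score lay between -0.09 and 0.52 in the shams (median 0.01), between -0.13 and 0.50 in month 1 and between -0.29 and 0.64 in month 2. It was 0.13, 0, -0.09 and 0 in Sham 6 to 9, which share the higher Myh7 level with every array of months 2 and 3. On the 9 arrays at the lower Myh7 level it ran from -0.07 to 0.52. The part of the Myh7 levels in this difference was not tested. Subtracting a constant from all levels of an array cannot move this difference. Quantile normalization or another background correction can, and the difference was not computed with them. In month 3 it was -0.35, -0.61, -0.39 and -0.85, below every array of the other groups in all 4 samples. The mitosis score by itself was 0.59, 0.07, -0.08 and 1.52 in those samples. Samples 2 and 3 reached the low difference with S phase scores below every sham, and samples 1 and 4 with mitosis scores above every sham.

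In 3 further versions all 4 samples again lay below every sham, though not in each below every other array. With all members and no filter, month 3 was at -0.27, -0.55, -0.51 and -0.76 against 0.01 to 0.57 in the shams, with 3 of 4 also below every month 1 and month 2 array. With only the 10 S phase and 6 mitosis genes above background in every sham it was -0.19, -0.66, -0.41 and -0.54 against -0.04 to 0.31. There all 4 were also below every other array. Without Hmmr and Cenpa it was -0.43, -0.54, -0.33 and -1.02 against -0.15 to 0.61, again with 3 of 4 below all other arrays. The median mitosis difference in month 3 stayed above 0 in every setting tried (0.34 to 1.28). The median S phase difference did not keep its sign: it was -0.08 with the percentile over all probes, -0.18 under quantile normalization and -0.29 with array weights, and 0.33 and 0.36 with normexp background correction and the deposited table. No test was made of the scores, since the members were chosen with earlier results known.

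**Figure D3:**
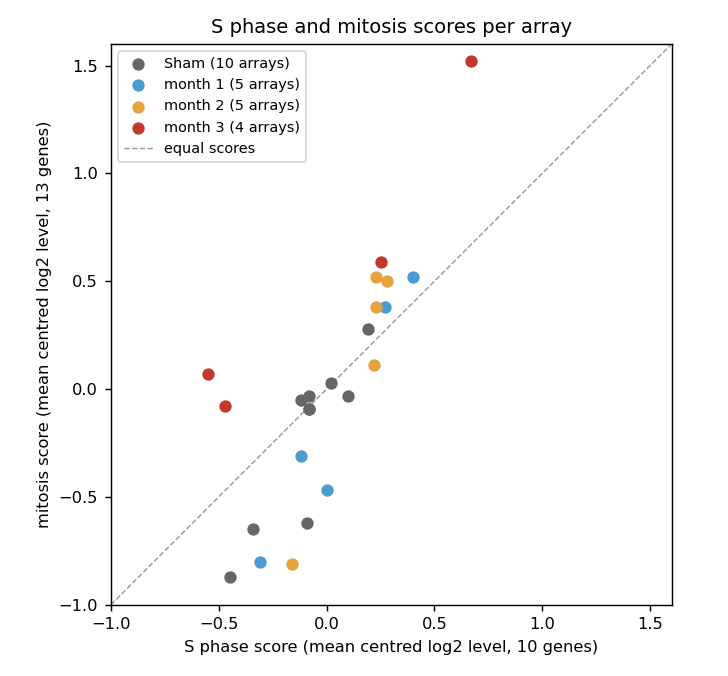
Mitosis score (y axis) against S phase score (x axis), both in log2 units relative to the mean over all arrays, for each of the 24 arrays by group. The dashed line marks equal scores. The 4 month 3 arrays lie above the line by 0.35 to 0.85, 2 at high mitosis scores and 2 at low S phase scores.

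The scaling of the arrays bears on the direction of the month 3 calls. Over all genes, 44.2% of the month 3 calls were upward, against 22.5% with the percentile over all probes, 29.8% under quantile normalization, 63.4% with normexp and 65.6% with the deposited table. Over all months the upward share was 44.3%, and 24.7%, 31.7%, 61.5% and 62.4% in the same order. The median difference of all genes in month 3 moved from -0.04 to -0.20 with the percentile over all probes, -0.13 under quantile normalization and 0.11 with the deposited table. The members' 8 higher and 3 lower calls in month 3 became 6 and 4, 4 and 4, 17 and 3, and 17 and 3 in that order. Hmmr rose and Cenpa fell under each of these scalings.

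Markers of other cell types varied on the same arrays. Over the 24 arrays the mitosis score had Pearson's r of 0.79 with the S phase score and 0.73 with the G1 score. It was 0.74 with the mean of 9 fibroblast markers, 0.68 with 7 endothelial markers and 0.41 with 7 macrophage and monocyte markers. Each is a description over arrays that share slides, groups and Myh7 levels. The G1 score ran from -0.32 to -0.17 at the lower Myh7 level and from -0.14 to 0.34 at the higher. For the fibroblast score these ranges were -0.75 to 0 and -0.51 to 0.62. The fibroblast score lay between -0.75 and 0.28 in the shams and between -0.51 and 0.47 in month 3, the endothelial score between -0.13 and 0.21 and between 0.04 and 0.49, and the macrophage score between -0.45 and 0.20 and between -0.01 and 0.35. All 9 fibroblast and all 7 endothelial markers and 7 of 10 macrophage markers on the array were above background on every array. The neutrophil score, over 3 of 6 markers, lay between -2.55 and -0.37 in the shams and between 0.20 and 1.80 in month 3. Of those 3, only 1 was above background in every sham, so the other 2 were kept through PSPI groups. The part of these cell types in the cell cycle results was not tested.

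**Figure D4:**
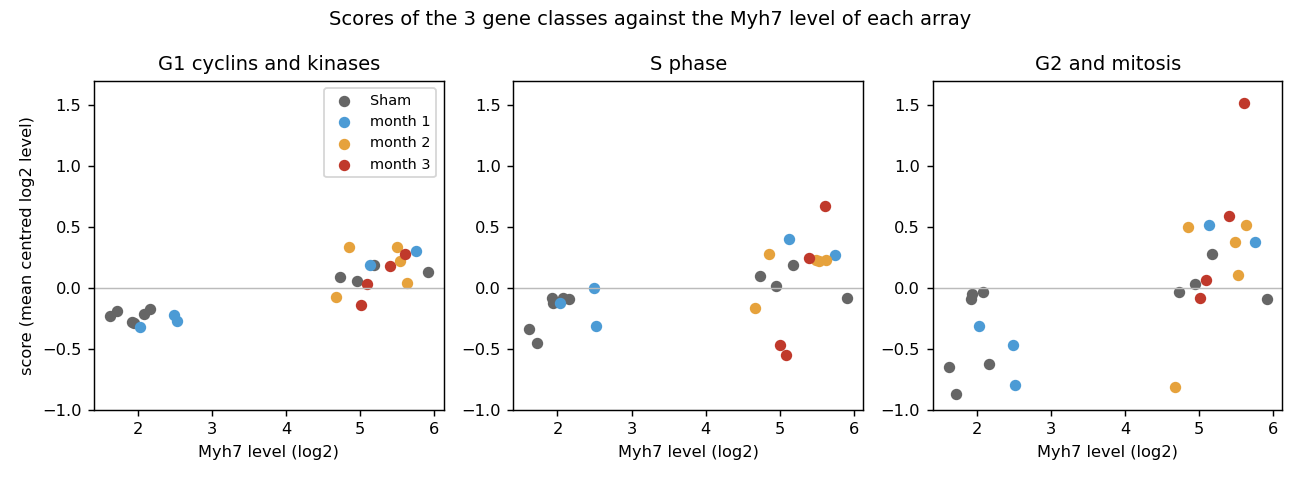
Class scores in log2 units (y axis) of the G1, S phase and mitosis genes against the Myh7 level (x axis, log2 relative to the array's 75th percentile) in each of the 24 arrays, coloured by group. The arrays fall at Myh7 levels of 1.62 to 2.52 and of 4.67 to 5.91, and shams and month 1 samples occur at both.

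Leaving out the 4 shams and 2 month 1 samples at the higher Myh7 level, the mitosis median was -0.06 in month 1 and 0.89 in month 3, and 0.74 for month 2 against month 1, where it was 0.24 with all arrays. In that fit every sham and month 1 array was at the lower Myh7 level and every array of months 2 and 3 at the higher. The values of 0.89 and 0.74 therefore cannot tell month from Myh7 level. The mitosis score itself ran from -0.87 to -0.03 on the 9 arrays at the lower Myh7 level and from -0.81 to 1.52 on the 15 at the higher one. Every month 3 array is at the higher level and 6 of 10 shams are at the lower. The 4 shams at the higher level had mitosis scores of -0.03, -0.09, 0.28 and 0.03, beside 0.59, 0.07, -0.08 and 1.52 in month 3. Samples 2 and 3 of month 3 thus lay among those 4 shams and samples 1 and 4 above them.

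Other genes of the cycle were taken from lists fixed by role. Of 10 CDK inhibitors and pocket proteins, 9 were tested, and 1 rose and 1 fell over all months, beside 24.4% of all genes called. Cdkn1a (p21), an inhibitor of cyclin-dependent kinases, rose by 1.15 ± 0.19 over all months (adjusted p = 0.000414) and by 1.92 ± 0.28 in month 3 (adjusted p = 2.17e-05). Cdkn1c (p57), a related inhibitor, fell by 0.61 over all months (SE 0.14, adjusted p = 0.00443). Of the transcription factors of the cycle, 13 of 15 were tested. Over all months none rose and 2 fell, beside the same 24.4% of all genes. E2f8 fell by 0.67 (SE 0.16, adjusted p = 0.00604) and E2f6 by 0.17 (SE 0.047, adjusted p = 0.0116), both repressors of the E2F family. In month 3, 3 rose and 4 fell, beside 38.9% of all genes called, and only 1 of the 3 that rose was above background in every sham. Among them Mybl2 (1.66 ± 0.35, adjusted p = 0.000845) and Foxm1 (0.65 ± 0.19, adjusted p = 0.0106), factors known for driving mitosis genes, were singled out after their values were seen. E2f7 also rose (0.76 ± 0.30, adjusted p = 0.049). Lin9 (-0.56 ± 0.15, adjusted p = 0.00626), Tfdp1 (-0.53 ± 0.17, adjusted p = 0.0162), E2f8 and E2f6 fell.

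Of 46 other replication genes, 33 were tested, with 6 higher and 2 lower over all months and 9 higher and 5 lower in month 3, beside 24.4% and 38.9% of all genes called. Of the 9, 6 were above background in every sham. Mcm8, a relative of the replicative helicase known for recombination repair, rose by 3.12 ± 0.32 in month 3 (adjusted p = 2.59e-07) and by 1.07 ± 0.22 over all months (adjusted p = 0.00204). Uhrf1, which guides maintenance DNA methylation at the fork, rose by 1.32 ± 0.31 in month 3 (adjusted p = 0.00212). Dut, which clears dUTP, fell by 0.80 (SE 0.15, adjusted p = 0.000285), and Rpa3, the small subunit of the single-strand binding protein RPA, fell by 0.70 (SE 0.10, adjusted p = 2.23e-05). The median of the 33 was -0.01 in month 3, beside -0.04 for all genes. Without the filter, all 46 had a month 3 median of 0.16, beside 0.27 for all genes in that fit.

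Of 70 other mitosis genes only 24 were tested. Over all months none were higher and 3 lower, beside 24.4% of all genes called. In month 3, 2 were higher and 3 lower, beside 38.9% of all genes called. The 3 lower ones were Kpna2, a nuclear import receptor, at -0.51 ± 0.086 in month 3 (adjusted p = 0.000111), H2ax, a histone variant of the DNA damage response, at -0.53 ± 0.12 (adjusted p = 0.00123), and Ckap5, a microtubule polymerase, at -0.34 ± 0.087 (adjusted p = 0.0043). The month 3 median of the 24 was 0.14, and 0.08 over the 21 above background in every sham, beside -0.04 for all genes. Without the filter, all 70 had a month 3 median of 0.54, beside 0.27 for all genes in that fit. There 10 were higher and 4 lower, where 23.4% of all genes were called. Of 22 checkpoint and anaphase-promoting complex genes, 18 were tested, with 1 higher and 3 lower over all months and 1 higher and 6 lower in month 3, shares near those of all genes (24.4% and 38.9%). Cdc27, a core subunit of that complex, rose by 1.58 ± 0.15 in month 3 (adjusted p = 6.37e-08), while its subunits Cdc26 (-0.56 ± 0.098, adjusted p = 0.000148), Anapc13 (-0.34 ± 0.11, adjusted p = 0.0136) and Anapc1 (-0.28 ± 0.088, adjusted p = 0.0161) fell.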

How the data were processed

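The scanner files, as deposited, give each spot's intensity on a linear scale after background subtraction by Agilent Feature Extraction 10.7.3.1, per the submitters' processing notes and the file headers. No scaling between arrays is recorded in them. A table deposited for the series also holds intensity, equal to the scanner's net signal within a relative tolerance of 0.001 for 62976 spots per array, and was used as an alternative. Build mm9 is given per the file headers.

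Control spots were dropped, as were 143 to 290 outlier spots an array, and replicate spots were averaged. From the log2 of the processed signal, the array's 75th percentile over 16946 probes (those well above background everywhere) was subtracted, since under 50% of probes were detected on 22 of 24 arrays. Probes were named through accession or symbol with a RefSeq gene table of GRCm38.p6, members by the array's gene name, and of several kept probes the one of highest mean stood for the gene. The average of the 3 PSPI month means, each month, and successive months were compared with limma 3.58.1 (lmFit, eBayes, R 4.3.3) in 1 model of 4 group means without covariates, on 12429 genes. On simulated data for month 3 against sham (12417 genes), 89 of 100 changes of log2 size 1 and 99 of 100 of size 2 were recovered, with 12 false calls. The simulated arrays varied independently, without slides, near-coincident pairs or separate Myh7 levels. The simulation therefore does not show how the fit performs on arrays that have these. The number of arrays limits the precision.

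The members and lists were chosen with earlier results of these data known. Members past the threshold in any comparison were named, with Mki67, Top2a, Cdk1, Ccnb1, Pcna, Mcm2, Ccnd1, Ccnd2 and E2f1 always, and up to 4 genes with the smallest p over all months of each further list. The other kept members were given as values to complete each class, and Kif11 and Aurkb as ends of a range. Of 27 pairs of equal replicate number across groups, 9 had deviations correlating above 0.1 (r -0.45 to 0.52). These include all 5 pairs between months 1 and 2 (0.19 to 0.52), whose numbers were therefore taken to pair the samples, from the data and not the labels. Between no other groups did every pair exceed 0.1. Alternatives were other scalings, background correction (normexp, offset 50), filters, rules for choosing probes, a trended and robust fit, array weights, the slide as fixed or as random block, the third slide alone, a replicate block, close arrays averaged, and leaving out arrays.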

Additional observations from a re-analysis of the deposited data

Results flagged for a closer look

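In month 2, sample 2 stood apart at the low end for 3 of the 8 genes plotted by array: Mcm6 at -1.91 (the next lowest at -1.12), Mki67 at -4.44 (next lowest -3.07) and Cenpe at -5.56 (next lowest -4.46). In each, the gap to the nearest sample exceeded Dixon's 95% critical value for 5 samples. Of 116 groups examined, 3 (2.59%) did so, and chance alone gives about 1 in 20.

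Hmmr and Cenpa differed between months 3 and 2 by a direct test of the months against each other, by 1.59 and -0.69 on the log2 scale. No explanation of these differences was tested.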

How the results depend on the processing

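Of the members called, the number stayed within 1.5 times its value, and the median differences of S phase and mitosis genes within 1 SD of the shams' class median, in 277 cases; 13 counts were lower, 7 were higher and 24 medians moved, as follows. With the percentile over all probes, 5 members were called over all months, 1 in month 2 and 4 for month 3 against month 2. Quantile normalization moved the S phase median in month 3 to -0.18. Normexp gave 20 calls in month 3 and S phase medians of 0.33 in month 3 and 0.08 for month 3 against month 2, and the deposited table gave 20, 0.36 and 0.11. Without a filter there were 4 calls over all months and 1 in month 2, and with the file's gene name for every probe 1 in month 2. Array weights gave 8 calls in month 2, 7 for month 2 against month 1 and 10 for month 3 against month 2. With them the S phase and mitosis medians were -0.29 and 0.34 in month 3, and -0.59 and 0.00 for month 3 against month 2. With slide as a block the mitosis median was 0.76 over all months and 0.88 in month 2. On the third slide alone, 0 members were called over all months and in month 2 (5 and 2 at an unadjusted p under 0.05, limma), 2 in month 3 and 1 for month 3 against month 2. There the S phase median was 0.41 in month 1 and -0.45 for month 3 against month 2, and the mitosis median 0.84, 0.78 and -0.05 in month 1, month 2 and month 3 against month 2. With close arrays averaged, 1 member was called over all months, 0 in month 2 (3 at an unadjusted p under 0.05, limma) and 7 in month 3, with S phase medians of -0.02 in month 1 and -0.01 for month 3 against month 2. Without month 3, 1 member was called and the Cenpa difference turned to 0.02. Without the 4 shams and 2 month 1 samples at the higher Myh7 level the mitosis median for month 2 against month 1 was 0.74, where month and Myh7 level cannot be told apart. Without the close pair of month 3, chosen after seeing the data, the S phase and mitosis medians were 0.53 and 1.28 in month 3, and 0.33 and 0.99 for month 3 against month 2. The cause of these shifts was not tested.

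Leaving out each array in turn, the calls ranged from 5 to 11 over all months, 1 to 4 in month 2, 8 to 12 in month 3 and 2 to 4 for month 3 against month 2. The S phase median ranged from -0.23 to 0.22 in month 3 and from -0.41 to -0.04 for month 3 against month 2, and the mitosis median from 0.44 to 1.02 and from 0.10 to 0.66.

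The replicate numbers were taken to pair the samples of months 1 and 2 from their correlations alone, and the block left 0 members called between these months. Samples 2, 3 and 4 of both months lay on the second slide and sample 5 of both on the third. For these samples a shared slide cannot be told apart from pairing. The numbers were not taken to pair the shams with any month or month 3 with another. With the replicate number as a block, 11 members were called over all months, 7 in month 2 and 12 in month 3, and the S phase median in month 3 was 0.25.

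Signal over background limits the mitosis genes most, since 13 of 26 had no kept probe and 7 more were not above background in every sham.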
